A study of Mus musculus with 5 samples.

Results

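Transcripts of the nerve cells and supporting glia of the gut wall were followed through 8 genes, Vip, Nos1, Ret, Elavl4, Uchl1, S100b, Sox10 and Gfap, out of 19938 genes measured. They were chosen by name for their known expression in the enteric nervous system, with earlier results of these data known. All 8 were found. Each had 1 probe set that names it alone. Gene expression had been profiled on Affymetrix Mouse Gene 1.0 ST arrays in the gut of male ddY mice, an outbred stock, at 5 weeks of age. All mice received 2 oral administrations 0.5 hours apart, and tissue was taken 4 hours after the last.

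Treatments are given as the labels pair them. The 5 groups were GA+GA (gum arabic given at both administrations, the vehicle control), LG21+GA (Lactobacillus gasseri OLL2716 and gum arabic), GA+Asp (gum arabic and aspirin), Tep+Asp (teprenone, a mucosal protective drug, and aspirin) and LG21+Asp (the strain and aspirin). Each group had 1 array. The labels do not state whether an array held RNA of 1 mouse or of several, and no difference between a pair of groups can be set against a spread between animals. RNA was taken from a part of the collected gut. In such bulk tissue fewer cells of a type and less RNA per cell cannot be told apart.

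The enteric nervous system is a network of ganglia lying between and beneath the muscle layers, derived from neural crest cells that migrate into the gut. Their survival and spread depend on the receptor tyrosine kinase encoded by Ret, which responds to GDNF family ligands. Inhibitory motor neurons relax the smooth muscle with nitric oxide, made by the enzyme that Nos1 encodes, and with the peptide encoded by Vip, which also drives secretion and widens blood vessels. Enteric glia surround the neurons and are recognised by S100b, Sox10 and Gfap.

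The promoter of Vip is shown because Vip was the single member at least 1.2-fold apart in any comparison, together with those of Uchl1, which was likewise highest in GA+Asp, and S100b, which was lowest there. RefSeq windows were matched by symbol for 6 of the 8 members (build GRCm38.p6), and Ret and Sox10 had none. The stretches are the 150 bases directly before the outermost annotated start of each gene, all on the plus strand, at chr10:5639043-5639192 for Vip, chr5:66675971-66676120 for Uchl1 and chr10:76253686-76253835 for S100b. Capitals mark TGACG, the core of the cyclic AMP response element, and TATAAA, the letters of a TATA box, each searched on both strands.
Vip: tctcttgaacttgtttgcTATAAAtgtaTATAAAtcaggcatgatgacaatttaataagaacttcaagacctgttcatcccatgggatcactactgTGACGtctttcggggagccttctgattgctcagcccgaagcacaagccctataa
Uchl1: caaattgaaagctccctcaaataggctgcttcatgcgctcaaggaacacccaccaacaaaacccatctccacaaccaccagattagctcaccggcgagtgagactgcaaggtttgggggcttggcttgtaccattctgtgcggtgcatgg
S100b: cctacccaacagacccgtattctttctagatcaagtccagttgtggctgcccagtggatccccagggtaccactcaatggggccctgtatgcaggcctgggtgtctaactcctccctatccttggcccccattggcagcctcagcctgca
The Vip stretch held 1 TGACG and 2 TATAAA, and the Uchl1 and S100b stretches held 0 of either. Both TATAAA lay toward the end of the stretch farthest from the annotated start. The Vip stretch itself ends in the letters tataa, and a match running past its edge would not be counted. Over the 250 bases before all 32851 annotated starts in the RefSeq table, 17.8% held TGACG and 12.4% held TATAAA on either strand. These windows are longer than the printed stretches and follow each listed start rather than the outermost start of a gene. At 250 bases Vip held 1 TGACG and 3 TATAAA, and Uchl1, S100b and Gfap held 0 of either. Nos1 and some of the Elavl4 windows held 1 TGACG and 0 TATAAA. These letters are a description of the window and say nothing about binding.

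Values are given on a log2 scale, as deposited, so a difference of 1 is a 2-fold difference. As a guide to background, 1194 olfactory and vomeronasal receptor genes, which gut tissue is not known for, had a 95th percentile of 6.23 for their mean level. The mean of S100b over the arrays (6.19) lay under it, while those of Elavl4 (6.34) and Gfap (6.46) lay a little above. The other 5 members had means between 7.34 and 7.97. Levels of different genes depend on their probes and are not compared. S100b was thus the 1 member of 8 near background, where 5093 of all 19938 genes lay, and these levels alone do not show which cells the transcripts came from.

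Among the neuronal transmitters, Vip stood at 7.86 in GA+GA, 7.95 in LG21+GA, 8.15 in GA+Asp, 7.93 in Tep+Asp and 7.95 in LG21+Asp. The GA+Asp array was the highest and the vehicle control the lowest, and the remaining arrays lay within 0.02 of each other. GA+Asp was 1.22-fold above GA+GA, a difference of 0.28. Of all genes, 2.91% were at least 1.2-fold apart in this comparison and 0.933% were at least 1.2-fold higher, and Vip was the only member of 8 past that fold. Of the members 4 were above 0, 2 below and 2 exactly equal, where 42.4% of all genes were above, 31.4% below and 26.2% equal. Against GA+Asp, Vip differed by -0.21 in Tep+Asp and -0.19 in LG21+Asp, both short of 1.2-fold. These 3 differences share the GA+Asp array and are not independent of each other.

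Aspirin did not go with a higher deposited Vip value on the arrays with the strain. Vip was exactly equal on LG21+Asp and LG21+GA, a difference of 0.00, as were 27.2% of all genes. After quantile normalization this difference was 0.0144. LG21 without aspirin differed from the control by 0.09. The aspirin difference was thus smaller by 0.28 with LG21, a contrast of single arrays that could not be tested.

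Nos1, whose product makes nitric oxide in many of the same motor neurons, read 7.42 on each of the 5 arrays, equal to the last deposited digit. Of all genes, 6.84% were equal on all 5 arrays in this way, so the equality is a feature of the deposited values that Nos1 shares with many genes. After quantile normalization of the same values Nos1 differed by 0.02 between GA+Asp and GA+GA, and after cyclic loess by -0.0035. Vip took 4 distinct values over the arrays, with the tie between LG21+GA and LG21+Asp.

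The receptors and effectors of these transmitters went both ways with aspirin alone. Of the 9 genes listed, among them the VIP receptors Vipr1 and Vipr2 and the soluble guanylate cyclase subunits Gucy1a1 and Gucy1b1, 5 were above 0, 2 below and 2 equal between GA+Asp and GA+GA, from -0.14 (Adcyap1r1, a receptor for the related peptide PACAP, named after its value was seen) to 0.11 (Pde5a). The count at 1.2-fold was 0, near the 2.91% of all genes. Vipr2 stood at 8.21 in GA+GA, 8.21 in LG21+GA, 8.19 in GA+Asp, 8.28 in Tep+Asp and 8.17 in LG21+Asp. Tep+Asp, the highest array for Vipr2, was strictly highest in 6 of the 9, against 14.3% of all genes, among them Pde5a, which breaks down cyclic GMP (9.59 against 9.37 in the control), and Kcnmb1, a potassium channel subunit of smooth muscle (9.22 against 8.99). Smooth muscle markers moved with these genes: 11 of 14 were strictly highest in Tep+Asp, and their summed linear level was 30305 there and between 28750.5 and 29249 on the other arrays. The part of muscle content in these values was not tested.

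**Figure D1:**
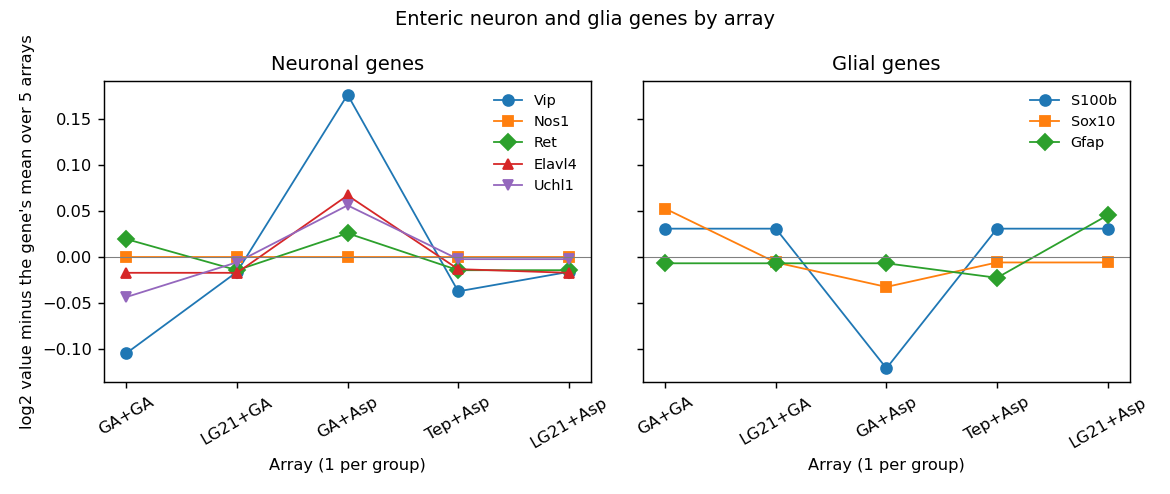
Deposited log2 value of each gene minus its mean over the 5 arrays (y axis), by array (x axis, 1 array per group), for the neuronal genes on the left and the glial genes on the right; lines only join the points of a gene. Vip, Elavl4, Uchl1 and Ret have their highest point in GA+Asp, Nos1 is flat, and S100b and Sox10 have their lowest point in GA+Asp.

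The general neuronal genes leaned the same way as Vip, by smaller amounts. Uchl1, the neuronal deubiquitinase also known as PGP9.5, stood at 7.72 in GA+GA, 7.76 in LG21+GA, 7.82 in GA+Asp and 7.76 in both Tep+Asp and LG21+Asp. It was highest in GA+Asp and lowest in the control, a difference of 0.10 or 1.07-fold. Elavl4, an RNA-binding protein of neurons also known as HuD, stood at 6.40 in GA+Asp and at 6.32 on the other 4 arrays, of which 3 were exactly equal. Its difference between GA+Asp and GA+GA was 0.08, from a level not far above background.

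Ret stood at 7.90 in GA+GA, 7.91 in GA+Asp and 7.87 on each of the other 3 arrays, which were exactly equal. GA+Asp and the control differed by 0.0065, so the order of the top pair carries no weight. In cyclic loess, another way to put the arrays on one scale, that difference was -0.0059. The 3 arrays with a pretreatment other than gum arabic alone were the lower ones.

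The members' values were often tied. Of the 8, 6 were equal on at least 3 arrays, against 52.5% of all genes, and their median standard deviation over the 5 arrays was 0.03, against 0.04 over all genes. Vip had the widest spread among them, 0.10.

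In all, 4 of the 5 neuronal members were strictly highest in GA+Asp, where 21.7% of all genes had their strictly highest value on that array. After quantile normalization the count was 5 of 5, against 27.2% of all genes, and after cyclic loess 3 of 5, against 27.6%. Members are separate genes read on the same arrays and are not replicates of the condition.

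The glial members leaned the other way or not at all. S100b, a calcium-binding protein of glia, stood at 6.07 in GA+Asp and at 6.22 on each of the other 4 arrays, which were exactly equal. The difference from the control was -0.15, at a level near background. Sox10, the transcription factor that maintains neural crest progenitors and glia, stood at 7.39 in GA+GA, 7.31 in GA+Asp and 7.33 on the other 3 arrays. It was highest in the control and lowest in GA+Asp, with a difference of -0.09.

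Gfap, the intermediate filament of astrocytes that enteric glia also make, stood at 6.45 in GA+GA, LG21+GA and GA+Asp, 6.44 in Tep+Asp and 6.51 in LG21+Asp. It was highest in LG21+Asp, by 0.05 over GA+Asp, and exactly equal with and without aspirin after gum arabic. GA+Asp was thus strictly lowest in 2 of the 3 glial members, against 18% of all genes, and the count was 2 of 3 under both other normalizations, against 22.2% (quantile) and 24.3% (cyclic loess) of all genes.

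Ties among the members were most frequent in the 3 comparisons without GA+Asp. Between LG21+Asp and LG21+GA, 6 of the 8 members were exactly equal, against 27.2% of all genes, and the largest difference was 0.05. Between LG21+Asp and Tep+Asp 5 were exactly equal, against 26.9%, and the largest difference was 0.07. LG21+GA and GA+GA were exactly equal for 4 members, against 31.4%, and the differences of the others ran from -0.06 to 0.09. At least 1.2-fold apart were 2.32%, 2.49% and 2.09% of all genes in these comparisons, and 0 members in each. Against GA+Asp, 1 member was exactly equal in each comparison, and the differences ran from -0.19 (Vip) to 0.15 (S100b) for LG21+Asp and from -0.21 (Vip) to 0.15 (S100b) for Tep+Asp. There too 0 members were 1.2-fold apart, with 3.37% and 2.32% of all genes.

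Comparing the 3 aspirin arrays with the other 2 gives several arrays on each side, at the price of mixing pretreatments. For Vip the mean was 8.01 ± 0.12 (SD, n = 3) with aspirin and 7.91 ± 0.06 (SD, n = 2) without, a difference of 0.10 with a standard error of 0.09 in limma (adjusted p = 0.833), and the sides overlapped. For Uchl1 the difference was 0.04 with a standard error of 0.03 (limma adjusted p = 0.833). Its 3 aspirin arrays all lay above the other 2, as in 5.45% of all genes (all below in 3.45%, with 0 members), by a margin of 0.0034 between the nearest arrays. The exact two-sided permutation p for Uchl1 was 0.2, which is the smallest that 10 arrangements allow. S100b and Sox10 differed by -0.05 and -0.04 (limma adjusted p = 0.833 for both). Single arrays carried these values. Without GA+Asp the aspirin difference was 0.03 for Vip, 0.02 for Uchl1 and 0.00 for S100b, and without GA+GA it was 0.06 for Vip, 0.02 for Uchl1 and -0.0089 for Sox10. Without LG21+GA it was -0.07 for Sox10. S100b stood at -0.08 without Tep+Asp and likewise without LG21+Asp.

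No member passed the limma test for aspirin at an adjusted p of 0.05, and 0 of all genes did (0%), with 581 genes (2.91%) at an unadjusted p under 0.05, of which 0 were members. For LG21, fitted with aspirin as a second term on the 4 arrays without teprenone, limma also called 0 genes (0%), with 874 (4.38%) at an unadjusted p under 0.05. Ret was among these with a difference of -0.04 and a standard error of 0.0067 (limma adjusted p = 0.753, unadjusted p = 0.0495); it was lower with LG21 in 2 of 2 pairs of arrays. For aspirin, the p-values measure the spread between these arrays, in which mouse and pretreatment cannot be told apart. For LG21, the only spread left in a gene's fit is the change of the LG21 difference with aspirin. That change was -0.0065 for Ret, which was exactly equal on LG21+Asp and LG21+GA. The small standard error of Ret therefore does not measure a spread between mice. A p that misses the threshold does not show that values were alike.

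A wider set of neuron and glia genes was read beside the members. It held 82 symbols, of which 76 had a probe set naming them alone and the others are not analysed here. Of the 76, 11 lay near background. With aspirin alone 43 were above 0, 18 below and 15 equal, where 42.4% of all genes were above, 31.4% below and 26.2% equal. The median was 0.02 against 0.00 over all genes, and 1 gene was at least 1.2-fold apart, against 2.91% of all genes. The limma test for aspirin called 0 of the 76, with 2 at an unadjusted p under 0.05, and that for LG21 called 0, with 4.

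The neuron part of this set, 45 genes of cell structure and transmission, was higher than the control in 28 and lower in 8 with aspirin alone, where 42.4% of all genes were above 0 and 31.4% below. The median was 0.04, and 0 of the 45 were 1.2-fold apart, against 2.91% of all genes. The strictly highest array was GA+Asp in 13 of the 45 (28.9%, against 21.7% of all genes) and GA+GA strictly lowest in 19 (42.2%, against 20.6%). After quantile normalization these counts were 24 and 21, against 27.2% and 31.6% of all genes, and after cyclic loess 22 and 18, against 27.6% and 18.5%.

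The vesicle protein gene Syp, named after its value was seen, came nearest to 1.2-fold, at 8.14 in GA+Asp and between 7.89 and 7.98 elsewhere. Syt1, the calcium sensor of vesicle release, also named after its value was seen, stood at 8.09 in GA+Asp and between 7.91 and 7.94 elsewhere. For both, GA+Asp lay above every other array.

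Of the 4 structural genes with the highest mean, Chga, Snap25, Stmn2 and Ncam1, the control was the lowest array in Chga (12.09, against 12.21 in Tep+Asp), Snap25 (8.96, against 9.12 in LG21+Asp) and Ncam1 (8.28, against 8.33 in Tep+Asp). Stmn2, a growth cone protein, stood at 8.60 in GA+Asp and at 8.57 on the other 4 arrays. Chga encodes a granule protein that gastric endocrine cells also make.

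Peptide transmitters were uneven. Grp, which encodes gastrin-releasing peptide, stood at 9.02 in GA+GA, 9.11 in LG21+GA, 9.22 in GA+Asp, 9.05 in Tep+Asp and 8.96 in LG21+Asp. Cartpt stood at 8.11 in GA+Asp and between 7.89 and 7.99 elsewhere. Like Vip, both were highest in GA+Asp.

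Npy, a peptide of sympathetic and some enteric neurons, was highest in LG21+GA, at 9.33 against 9.06 in the control, 9.06 in GA+Asp, 8.96 in Tep+Asp and 9.06 in LG21+Asp. It was at least 1.2-fold apart both from the control (0.27) and from LG21+Asp (-0.28), 2 differences that share the LG21+GA array. After cyclic loess the first (0.26) and after quantile normalization the second (-0.26) stopped just short of 1.2-fold. The opioid peptide gene Penk read 8.66 on all 5 arrays.

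Nmu, which encodes neuromedin U and was named after its value was seen, stood at 6.84 in Tep+Asp and between 6.31 and 6.53 elsewhere. That was 0.52 above GA+Asp. Its mean lay below the median of all genes.

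**Figure D2:**
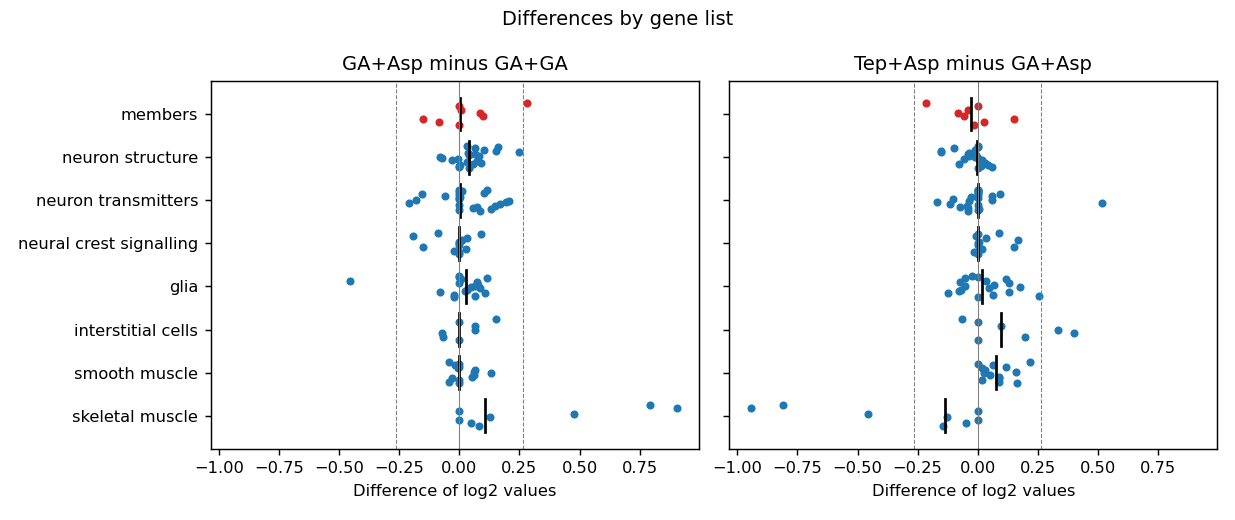
Difference of deposited log2 values (x axis) for each gene of a list (points; y axis, lists), with the list's median as a black bar, for GA+Asp minus GA+GA on the left and Tep+Asp minus GA+Asp on the right; dashed lines mark 1.2-fold and the 8 members are in red. The members' median is 0.0032 on the left and -0.03 on the right, and among the lists drawn the skeletal muscle genes reach farthest on the left, to 0.91.

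Ligands, receptors and transcription factors of enteric neural crest went both ways with aspirin alone: 4 of 13 were above 0, 5 below and 4 equal, from -0.19 (Gfra1) to 0.09 (Nrtn). None of the 13 was 1.2-fold apart, a count near the 2.91% of all genes. LG21+Asp was strictly highest in 7 of the 13 (53.8%, against 22% of all genes), Nrtn among them. Nrtn, the GDNF family ligand neurturin, stood at 8.37 in the control, 8.56 in LG21+Asp and 8.46 on the other 3 arrays. Ednrb, the endothelin receptor needed for colonisation of the gut, was highest in Tep+Asp (8.29) and between 8.09 and 8.16 elsewhere. L1cam ran from 7.97 in LG21+Asp to 8.07 in LG21+GA. Hand2, a transcription factor of enteric neurons, was equal on all 5 arrays at 7.87. Gfra1, the co-receptor that presents GDNF to the Ret protein, named after its value was seen, stood at 7.96 in the control and between 7.77 and 7.78 elsewhere.

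The 18 further glial genes had a median of 0.03 with aspirin alone, with 11 above 0 and 5 below, so they did not lean to the side of S100b and Sox10. GA+Asp was strictly lowest in 3 of the 18 (16.7%, against 18% of all genes). These were Kcna1 and Gpm6b, named after their values were seen, at -0.08 and -0.02 from the control, and Fabp7, a fatty acid binding protein of glia. Fabp7 stood at 7.87 in GA+GA, 7.50 in LG21+GA, 7.41 in GA+Asp, 7.45 in Tep+Asp and 7.50 in LG21+Asp. It was highest in the control and lowest in GA+Asp, differing by -0.46 with aspirin alone and by -0.37 with LG21 alone. Transcripts of hepatocytes had the same extremes. All 9 listed were strictly highest in GA+GA, against 11.7% of all genes, and 7 were strictly lowest in GA+Asp, against 18%. Alb ran from 7.43 to 12.69. The part of hepatocyte transcripts in the Fabp7 values was not tested.

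Tep+Asp was strictly highest in 8 of the 18 glial genes (44.4%, against 14.3% of all genes). Pmp22, a myelin protein also made by fibroblasts, stood at 10.62 there and between 10.40 and 10.47 elsewhere. Scn7a, a sodium channel of glia, stood at 9.26 in Tep+Asp, 9.20 in LG21+Asp and between 8.88 and 9.01 elsewhere. Scn7a was at least 1.2-fold higher in LG21+Asp than in LG21+GA (0.32). Cryab, a small heat shock protein that muscle also expresses, ran from 9.03 in LG21+Asp to 9.34 in Tep+Asp, at least 1.2-fold apart (-0.31).

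S100a1, from 10.98 in LG21+Asp to 11.10 in GA+Asp, and the neuregulin receptor gene Erbb3, from 10.41 in Tep+Asp to 10.49 in LG21+GA, differed by less than 1.2-fold in all 6 comparisons. Smooth muscle genes, highest in Tep+Asp as given above, moved with the glial genes of that array, and their part was not tested.

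Interstitial cells, which pace the muscle and relay signals from the nerves, were read through 7 genes. Kit, the receptor of interstitial cells of Cajal that mast cells also carry, stood at 9.54 in the control, 9.69 in GA+Asp and between 9.61 and 9.62 on the others. Ano1, their chloride channel, ran from 9.58 to 9.62. Pdgfra, of the fibroblast-like interstitial cells, stood at 9.61 in Tep+Asp and between 9.21 and 9.35 elsewhere. Gja1, a gap junction protein, stood at 9.40 in Tep+Asp and between 8.99 and 9.07 elsewhere. Pdgfra and Gja1 were the 2 of 7 at least 1.2-fold higher in Tep+Asp than in GA+Asp, where 1.52% of all genes were. Smooth muscle genes, also highest in Tep+Asp as given above, moved with Pdgfra and Gja1, and their part was not tested.

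**Figure D3:**
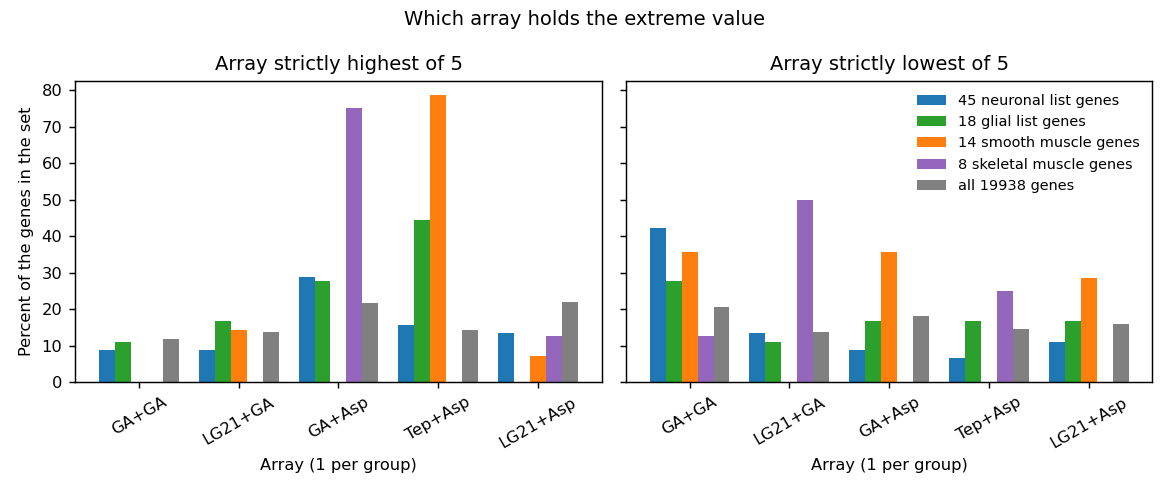
Percent of the genes in a set (y axis, from 0) whose value is strictly highest (left) or strictly lowest (right) on each array (x axis), for neuronal, glial, smooth muscle and skeletal muscle genes and for all 19938 genes in grey. GA+GA is strictly lowest in 42.2% of the neuronal genes against 20.6% of all genes, and Tep+Asp strictly highest in 44.4% of the glial genes against 14.3%.

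Transcripts typical of other tissues also varied between the same arrays. Skeletal muscle genes were strictly highest in GA+Asp in 6 of 8, against 21.7% of all genes. Their summed linear level was 1517 there and between 1117 and 1134 on the other arrays. Myh8, a myosin heavy chain, stood at 7.24 in GA+Asp and between 6.30 and 6.38 elsewhere. Enteroendocrine genes, which share granule and peptide genes with neurons, had a median difference of 0.09 between GA+Asp and GA+GA. Of these 8 genes 5 were above 0, against 42.4% of all genes. On all 3 aspirin arrays 3 of the 8 were higher than on the other 2, against 5.45% of all genes. Summed on the linear scale the 8 genes reached 11534 in the control and 11213 in LG21+GA. On the aspirin arrays their sum lay between 12208 and 12385, highest in GA+Asp. Hepatocyte genes, given above beside Fabp7, had a median difference of -3.02 between GA+Asp and GA+GA. Their summed linear level was 15471 in GA+GA and 3319 in GA+Asp. The part of the skeletal muscle, enteroendocrine and hepatocyte lists in the values of Vip, Uchl1, Elavl4 and the wider neuron genes was not tested. Squamous epithelial genes, of the forestomach lining, were strictly highest in Tep+Asp in 8 of 9, against 14.3% of all genes. They were strictly lowest in LG21+Asp in 9 of 9, against 15.9%. Their median differences from GA+Asp were 0.79 in Tep+Asp and -0.93 in LG21+Asp. Their part in the glial, interstitial cell, Nmu and neural crest values of these arrays was not tested. Smooth muscle genes, which mark the wall the ganglia lie in, had a median difference of 0.00 between GA+Asp and GA+GA, and their summed linear level was 28750.5 in GA+Asp and 28751.8 in GA+GA. Gastric epithelial markers were well above background in 10 of 10. Of 9 intestinal markers 3 lay near it, where 5093 of all 19938 genes lay. The labels give the tissue only as gut.

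Genes whose pattern was most like the members' were sought among 4967 genes above the median level and at least as variable as the median member. Likeness was Pearson's r over the 5 arrays with the mean of the members' centred values, a profile that spans only -0.0090 to 0.02. The values were not scaled, so Vip, with the widest spread, weighs most in this profile. S100b and Sox10 went the other way in GA+Asp. The 10 closest were Ankrd9, Nr0b2, Ldah, Mtfp1, Rogdi, Zfp512, Nmt1, Tmem242, Decr1 and Mrps6, with r from 0.981 to 0.997. With 5 arrays and this many candidates such values are a description only. None of the 10 was on a neuron or glia list. Nr0b2, a nuclear receptor of bile acid metabolism, stood at 9.26 in GA+Asp and between 8.99 and 9.09 elsewhere.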

How the data were processed

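The deposited values are log2 RMA expression values per probe set, made by the authors with Expression Console per the labels; the series' design text names another program, the Affymetrix Exon Array Computational Tool. RMA corrects background, normalizes between arrays and summarises probes. That the scale is log2 was read from the values (1.32 to 13.87). Array medians ran from 6.95 to 6.98.

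Of 35557 probe sets 21789 named 1 gene, 1621 several and 12147 none in the platform annotation; 21698 matched the RefSeq table (GRCm38.p6) by identifier. Each gene took its probe set with the highest mean over 5 arrays. Differences were taken between pairs of arrays and called at 1.2-fold. limma 3.58.1 (R 4.3.3) was fitted to all 19938 genes with Benjamini-Hochberg adjustment. The aspirin fit was also tried on simulated data with 2-fold changes. Those are larger than any member difference here, so the trial does not bear on differences of the members' size. Python 3.11.15 and scipy 1.17.1 gave the exact permutation test. Genes with equal values had zero variance, which limma offsets. The number of arrays limits the precision. Detection calls were not used here.

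Members and lists were chosen with earlier results of these data known. Besides the members, the text names the 4 genes with the highest mean of each neuron, neural crest, glia, receptor and effector, and interstitial cell list. Kcnma1, among the receptors and effectors, is the exception and is not described. Also named are up to 5 per comparison that were 1.2-fold apart and above the median of all genes (7.41), and the 10 most like the members. Other names were chosen after their values were seen. Alternatives were 1.5-fold and 2-fold thresholds, a filter at that median, the mean of a list, the mean of probe sets, quantile normalization, cyclic loess with 3 iterations, an intensity trend, LG21 as a second term and leaving out each array; counts of highest arrays under other normalizations were added after seeing the data.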

Additional observations from a re-analysis of the deposited data

How the results depend on the processing

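With 1 array per group, differences between pairs have no error, and only gaps between arrays limit what can be read. Vip stayed past 1.2-fold with aspirin alone (0.28 with quantile normalization, 0.27 with cyclic loess). The wider lists' median with aspirin alone was 0.0185 and ran from 0.0111 (mean of probe sets) to 0.0367 (filter), and was 0.0321 with quantile normalization. The count of wider list genes at least 1.2-fold apart was 1 with aspirin alone, 2 for LG21+GA against GA+GA, 0 for LG21+Asp against GA+Asp, 1 for Tep+Asp against GA+Asp, 2 for LG21+Asp against LG21+GA and 2 for LG21+Asp against Tep+Asp, and 0 in each at 1.5-fold and at 2-fold. It became 1 for LG21+GA against GA+GA with cyclic loess, 2 for Tep+Asp against GA+Asp with quantile normalization and with cyclic loess and 0 with the filter, 1 for LG21+Asp against LG21+GA with quantile normalization, and 1 for LG21+Asp against Tep+Asp with the filter. The cause was not tested, except that the filter leaves fewer genes.

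The limma count for aspirin was 0 with all arrays and ran from 0 to 740 when an array was left out: 492 without GA+GA and 740 without LG21+GA, where 1 array without aspirin remains and is assumed to vary like the others, and where 0 members passed. No other fit, for aspirin or LG21, called a gene. For aspirin, Ret changed sign from -0.0035 to 0.0069 with quantile normalization and ranged from -0.0203 to 0.0134 when an array was left out (0.0134 without GA+GA, 0.0032 without Tep+Asp or LG21+Asp), and Gfap, 0.01 with all arrays, ranged from -0.0079 (without LG21+Asp) to 0.0261. No paired analysis was possible because each group has 1 array and the labels carry no replicate numbers.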
